A study of Mus musculus with 5 samples.

Results

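The genes of the enzymes that make serotonin and the catecholamines were examined for REST binding in embryonic mouse pancreas. Tph1 and Tph2 encode tryptophan hydroxylases, Th encodes tyrosine hydroxylase, Ddc encodes the aromatic amino acid decarboxylase shared by both pathways, and Dbh encodes dopamine beta-hydroxylase. The 5 genes were taken as a list, of 22380 protein-coding genes, and a peak was assigned to a gene when it touched the gene body or lay within 50 kb of its start. This gave 4 of the 1860 joined sites of the series. REST was immunoprecipitated with the mouse monoclonal antibody 12C11 from untreated wild-type pancreas of a mixed strain background with C57BL/6, in 3 libraries at E18.5 (A, B and C) and 2 at E13.5 (A and B). All were pools of whole organs from several embryos, and no group carried a mutation of Rest. The lists held 541, 417 and 226 peaks at E18.5 and 1400 and 1333 peaks at E13.5. The letters only name libraries and do not pair them across stages.

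REST keeps neuronal genes off outside neurons, as a repressor whose zinc fingers recognise a DNA element called RE1. Serotonin is made from tryptophan by a tryptophan hydroxylase and then by the decarboxylase, and the hydroxylase sets the rate. TPH2 is the form of brain neurons and TPH1 that of gut, pineal gland and islet beta cells, where serotonin is stored with insulin. Tyrosine hydroxylase is the rate-limiting enzyme of catecholamine synthesis. The decarboxylase then yields dopamine, and dopamine beta-hydroxylase converts it to noradrenaline inside vesicles.

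The elements under the peaks are shown first, because they set the sites apart from each other. An RE1 weight matrix of 21 positions was learned from 635 high-scoring E13.5 B peaks that lay more than 1 Mb from any of the 5 genes. The element has a left arm of 9 bases and a right arm of 10 bases, here in capitals, with 2 bases between them.

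Learned RE1 consensus: TTCAGCACCacGGACAGCGCC

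The sequence at the start of Tph2 is given with both arms in capitals. It is read on the minus strand of chr10:114622044-114622070 (mm9) and begins at base 9 of the transcript, in the 5′ UTR.

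Tph2 start: TTCAGCACCagggttctGGACAGCGCC

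Both arms of this element are identical to the consensus, with 0 differences in either, but 8 bases stand between them, 6 more than in the canonical RE1. For the other 3 sites the 21-base match with the canonical spacing is in capitals, with 40 bases on each side. They lie at chr10:114580812-114580912 (plus strand, an intron of Tph2), chr2:26998041-26998141 (minus strand, upstream of Dbh) and chr7:53905764-53905864 (plus strand, an intron of Tph1).

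Tph2 intron: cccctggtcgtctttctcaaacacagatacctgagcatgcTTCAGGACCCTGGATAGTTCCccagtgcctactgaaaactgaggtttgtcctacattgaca

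Upstream of Dbh: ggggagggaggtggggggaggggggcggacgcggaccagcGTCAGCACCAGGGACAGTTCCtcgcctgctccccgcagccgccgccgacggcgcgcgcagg

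Tph1 intron: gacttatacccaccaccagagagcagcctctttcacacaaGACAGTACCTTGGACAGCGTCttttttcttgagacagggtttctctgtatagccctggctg

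Tph2 had the highest-ranked site of the 5 genes. The site at its start (chr10:114621803-114622321) covered the 5′ UTR and the beginning of the coding sequence, with its centre 16 bp downstream of the start. Peaks were ranked by the deposited score within each library, as a percentile in which 100 is the highest. The start site was at rank 61.3 in E18.5 A and 14.4 in E18.5 C and was not called in E18.5 B, against ranks of 93.6 and 84.6 in E13.5 A and B. The E18.5 ranks belong to lists of 541 and 226 peaks, in which 182 and 186 peaks scored higher. In the E13.5 lists of 1400 and 1333 peaks, 85 and 198 scored higher. The site was thus called in 2 of 3 libraries at E18.5 and in 2 of 2 at E13.5. Its percentile was higher in both E13.5 libraries than in either E18.5 library, but the lists differ in length, and counted from the top its place in E13.5 B (199) was below those in E18.5 A (183) and C (187). No site of the 5 genes was called in all 5 libraries, so no rank was tested between stages.

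**Figure D1:**
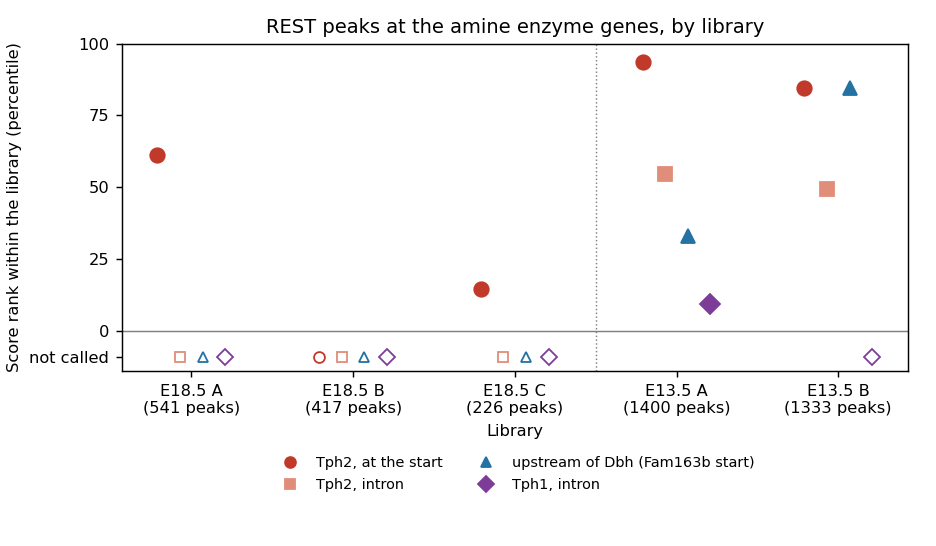
Score rank (percentile within the library's own list, vertical axis) of the 4 sites in the 3 E18.5 and 2 E13.5 libraries (horizontal axis, with the number of peaks in each list), with open symbols where no peak was called. The Tph2 start site is the only one of the 4 with a peak at E18.5, at ranks 61.3 and 14.4, and it stands at 93.6 and 84.6 at E13.5.

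The missing peak in E18.5 B was set beside other sites of like strength. Of 126 other sites called in both E13.5 libraries with a mean rank within 5 points of that of Tph2 (89.1), 65.1% had a peak in E18.5 A, 54.8% in E18.5 B and 46.8% in E18.5 C (exact 95% intervals 56.1 to 73.4, 45.7 to 63.6 and 37.9 to 55.9). At least 2 E18.5 libraries called 55.6% of them, as they did for Tph2. The read depth of the libraries is unknown, and a peak that was not called is no measurement of absent binding.

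A weaker site lay in an intron of Tph2, 41.2 kb downstream of the start (chr10:114580624-114581137). It was called in no E18.5 library and had ranks of 54.8 and 49.3 in E13.5 A and B, near the middle of both lists. Among 140 other sites with a mean E13.5 rank within 5 points of it (52.0), 34.3% were called in some E18.5 library (26.5 to 42.8), so a missing peak was the usual outcome for sites of this rank. Tph2 had no other gene under the rule at either site, and the next site on the chromosome, an E18.5 A peak of rank 27.0 in an intron of Cnot2, lay 1390 kb away.

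At the catecholamine end of the pathway, Dbh had a site 22.7 kb upstream of its start (chr2:26997840-26998320). This site was 69 bp upstream of the start of the neighbouring gene Fam163b, which is transcribed away from Dbh, and it overlapped the first exon and UTR of that gene. No E18.5 library called it, whereas E13.5 A and B gave it ranks of 33.1 and 84.6. The 2 libraries of E13.5 thus placed it 51.5 points apart, against a median gap of 11.2 points over the 1186 sites called in both, of which 11 (0.927%) had a wider gap. Peaks of like mean rank (58.8) were called in any E18.5 library for 36.6% of 145 sites (28.7 to 44.9).

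**Figure D2:**
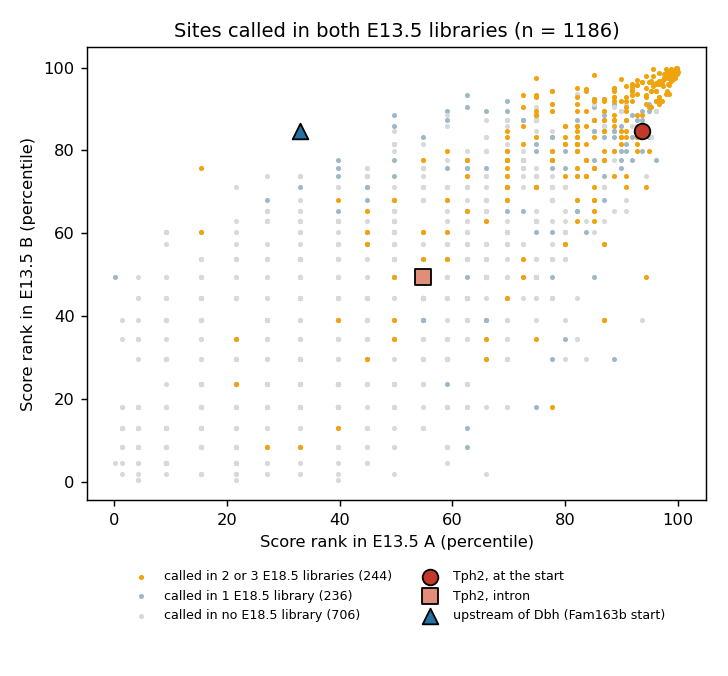
Score rank in E13.5 A (horizontal axis) against E13.5 B (vertical axis), both in percentiles, for the 1186 sites called in both, coloured by the number of E18.5 libraries that called them, with the 3 sites of Tph2 and Dbh in large symbols. The Tph2 start site lies at 93.6 and 84.6 among sites often called again at E18.5, and the site upstream of Dbh lies off the diagonal, at 33.1 and 84.6.

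Tph1 had a peak in an intron (chr7:53905742-53905854), 22.1 kb downstream of its start, that was called in E13.5 A only. The peak centre was 991 bp from the nearest annotated transcript start of Tph1, and the nearest protein-coding start was 16.9 kb from the peak. This peak had rank 9.18, with 1229 of the 1400 peaks scoring higher, and 204 of the 1860 sites were likewise called in E13.5 A alone. The Sergef gene has this peak under the rule too. The next site, at the start of the potassium channel gene Kcnc1, was 275 kb from the start of Tph1.

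Th and Ddc had no peak in any of the 5 libraries under the rule. The site nearest to the start of Th was a single E18.5 A peak of rank 27.0 at Syt8, a synaptotagmin gene, 493 kb away. The annotation gives Th protein-coding starts at 150117033 and 150085919 on chromosome 7, and from the second of these the nearest site was 462 kb away. For Ddc the nearest site (chr11:11925647-11926182) was 128 kb from the start, at the start of the neighbouring gene Grb10, which encodes an adaptor of the insulin receptor. That site was called in all 5 libraries, with ranks of 27.0, 88.4 and 41.6 in E18.5 A, B and C and of 90.9 and 84.6 in E13.5 A and B.

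**Figure D3:**
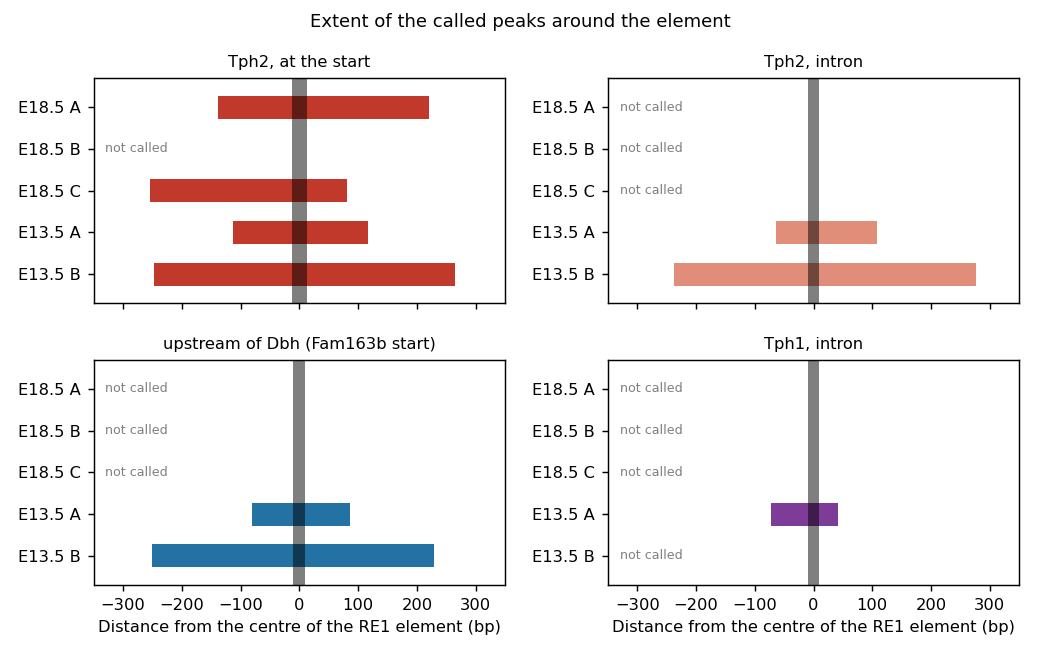
Extent of the called peaks (bars) in each library at the 4 sites, in bp from the centre of the RE1 element (grey band), with coordinates increasing to the right. Every called peak spans its element, and the peaks of E13.5 A are shorter than those of E13.5 B at each of the 3 sites called in both.

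How often a gene is assigned a peak was read from all 22380 protein-coding genes under the same rule. Of the 5 enzyme genes 1, 0 and 1 had a peak in E18.5 A, B and C, against 3.27%, 3.05% and 1.97% of all genes, and 3 and 2 had a peak in E13.5 A and B, against 7.83% and 7.57%. A site called in at least 2 E18.5 libraries was present for 1 gene (Tph2), against 2.20% of all genes. This count was 0 without E18.5 A (1.36% of all genes) and 0 without E18.5 C (1.54%), when both remaining E18.5 libraries had to call the site. A site called in both E13.5 libraries was present for 2 genes (Tph2 and Dbh), against 6.89%. In any library 3 of the 5 had a peak, against 9.80%. With the limit at 5 kb from the start and no gene body, which was tried only once the data had been seen, only Tph2 had a reproducible site at either stage, against 0.603% of all genes at E18.5 and 1.56% at E13.5. The windows of the 5 genes spanned 100 to 156 kb, and the median over all genes was 100 kb.

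The number of enzyme genes with a peak was 0.667 ± 0.577 (SD, n = 3) per E18.5 library and 2.5 ± 0.707 (SD, n = 2) per E13.5 library, a difference of -1.83 genes. The groups did not overlap, which gives an exact two-sided permutation p of 0.2, the smallest that 3 libraries against 2 allow. The share of all genes with a peak moved in the same direction (1.97% to 3.27% at E18.5 and 7.57% to 7.83% at E13.5), as did the length of the lists. When each list was limited to its 226 highest scores, the difference was -0.833 genes (exact permutation p = 0.6).

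The RE1 elements of the 4 sites differed in strength. A match was taken as present in a 500-bp window when its log-odds score passed the level reached by 0.5% of windows 10 kb downstream, which was 4.70. Such a match was present at 60.5% of all 1849 sites searched, at 53.9% of those called in E13.5 A only, at 77.3% of the sites called in both E13.5 libraries, at 74.0% of the E13.5 B peaks not used for learning and at 73.1% of the sites called in at least 2 E18.5 libraries. The site upstream of Dbh had the best of them, with a score of 27.7 and 4 mismatches to the consensus, higher than 65.1% of all sites with a match. The Tph2 intron scored 14.5 and the Tph1 intron 12.2, each with 6 mismatches, above only 10.9% and 7.06% of matched sites. Each of these elements lay inside the called peak. The Tph2 start had no canonical match, its best score being -2.74.

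A search that let the spacing of the arms vary, from 4 bases fewer to 20 more, was added after the Tph2 sequence had been seen. With the limit again set at 0.5% of downstream windows, 182 of 1849 sites (9.84%) had an element with another spacing and no canonical match, against 0.487% of downstream windows. No site of the 182 scored higher than the Tph2 start (34.8), and ties were not counted. Both its arms are identical to the consensus, so no higher score was possible. In all, 69 of the 182 (37.9%) had 6 extra bases, as at the Tph2 start. Spacings of 5, 7 and 8 extra bases followed with 27, 30 and 19 sites. Elements of this kind made up 11.9% of the sites called in both E13.5 libraries and 16.9% of those called in at least 2 E18.5 libraries.

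**Figure D4:**
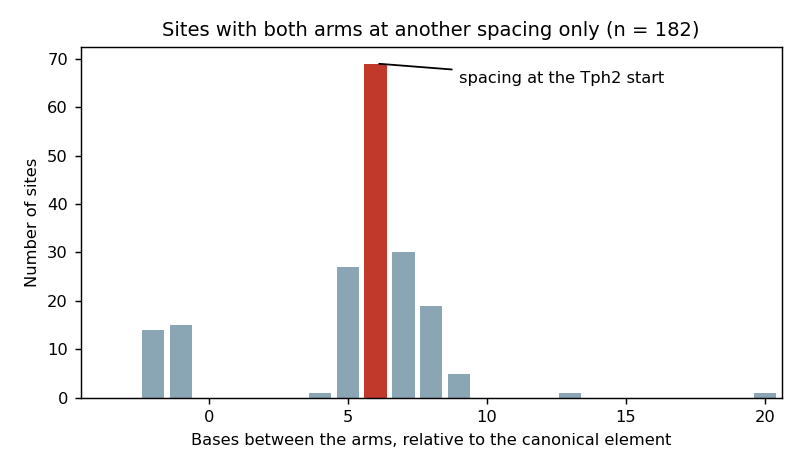
Number of sites (vertical axis) by the number of bases between the arms of the RE1 element relative to the canonical spacing (horizontal axis), for the 182 sites with an element of another spacing only. The bar of 6 extra bases, the spacing at the Tph2 start, is the tallest, with 69 sites.

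The promoters of the 5 genes were then searched regardless of peaks, in the RefSeq sequences of 300 bases around each start (GRCm38.p6), which held all 5 genes in 7 entries. Only the Tph2 promoter had a match, the one shown above, which again begins at base 9. Over all 32851 promoters 0.734% had a canonical element and 0.167% one with another spacing only.

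The whole windows of the genes held few strong elements of the canonical spacing, the only spacing searched there. At a stricter limit, the median score of sites with a match (25.7), the genome had 632 matches, of which 578 (91.5%) lay under a peak of at least 1 library, and 4.07% of genes had one in their window. Both the limit and the matrix came from peaks of these data. The 91.5% is therefore no independent measure of how often strong elements are bound. Of the 5 genes only Dbh had a match at this limit, the element under its upstream peak. The Tph2 start element, with its other spacing, could not be counted in this search. At the limit of 4.70, which 77.0% of all genes reached somewhere in their window, Ddc had 0 matches. Th had 1, with 8 mismatches and no peak, 0.822 kb upstream of its start at 150117033. From the other Th start, at 150085919, this match lay farther upstream. For Tph1 and Tph2, 6 and 3 weak matches were found. The best of Tph1 was the one under its peak, and the best of Tph2 (7 mismatches, in the gene body) was under none.

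Genes whose best site had the same pattern of calls and the nearest mean E13.5 rank were looked up for the bound members. Of 84 genes called in E18.5 A and C and in both E13.5 libraries, the nearest to Tph2 was Cartpt, which encodes a neuropeptide precursor, with a site 0.051 kb from its start (chr13:100670329-100670845) and ranks of 70.2 and 27.0 at E18.5 and 86.9 and 92.5 at E13.5. Next came Gabrd, a GABA receptor subunit gene, and its neighbour 2010015L04Rik, which share a site with a mean E13.5 rank of 87.3. Dbh had 765 genes with its pattern, called in both E13.5 libraries only, and the nearest were Ankrd34c and the neighbours Ap3d1 and Dot1l, which share a site, each with a mean rank of 58.9.

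Around the synthesis enzymes, genes of the wider amine pathway were counted by list. A site in at least 2 E18.5 libraries was present for 1 of 64 list genes (1.56%) and a site in both E13.5 libraries for 13 (20.3%), beside 2.20% and 6.89% of all genes. None of the 6 genes for making or regenerating tetrahydrobiopterin, the cofactor of both hydroxylase types, had a reproducible site. Among them, Pts had a single E18.5 A peak 34.6 kb away. Maoa and Maob, which encode the monoamine oxidases of amine breakdown, had no peak in any library. Of 5 transporter genes, the vesicular monoamine transporter gene Slc18a1 had a site 0.713 kb from its start, but also 124 bp from that of Atp6v1b2. It was called in E18.5 B at rank 29.5 and in E13.5 A and B at 66.0 and 49.3.

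Receptor genes made up much of the count. The shares of all genes to set beside these lists are 2.20% at E18.5 and 6.89% at E13.5. A count of 0 at E18.5 in a list of 14 or 15 genes is close to that share. Of 14 serotonin receptor genes 0 had a reproducible site at E18.5 and 4 at E13.5. The sites of Htr1a and Htr5a were 0.909 and 0.206 kb upstream of their starts, and those of Htr3a and Htr6 were 12.3 and 15.8 kb downstream. Htr1a, the gene of the inhibitory autoreceptor of serotonin neurons, had ranks of 80.0 and 53.8 at E13.5 for this site, which was not called at E18.5. A further Htr1a site, 5.97 kb downstream of the start, was called in E18.5 A alone, at rank 27.0. Of 14 dopamine and adrenergic receptor genes 0 had a reproducible site at E18.5 and 4 at E13.5 (Drd2, Drd3, Drd5 and Adra2c). Drd2, the D2 dopamine receptor gene, had 2 such sites, 0.229 kb upstream and 0.571 kb downstream of its start, with mean E13.5 ranks of 51.7 and 75.6. Of 15 genes of monoamine neuron factors 0 had one at E18.5 and 2 at E13.5. These were Fev, a factor of serotonin neurons, with a site 6.32 kb upstream (mean E13.5 rank 76.1) that was nearer to the start of Cryba2, and a further one 27.2 kb downstream near Cdk5r2, and Insm1, with a site 4.80 kb downstream (40.3).

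**Figure D5:**
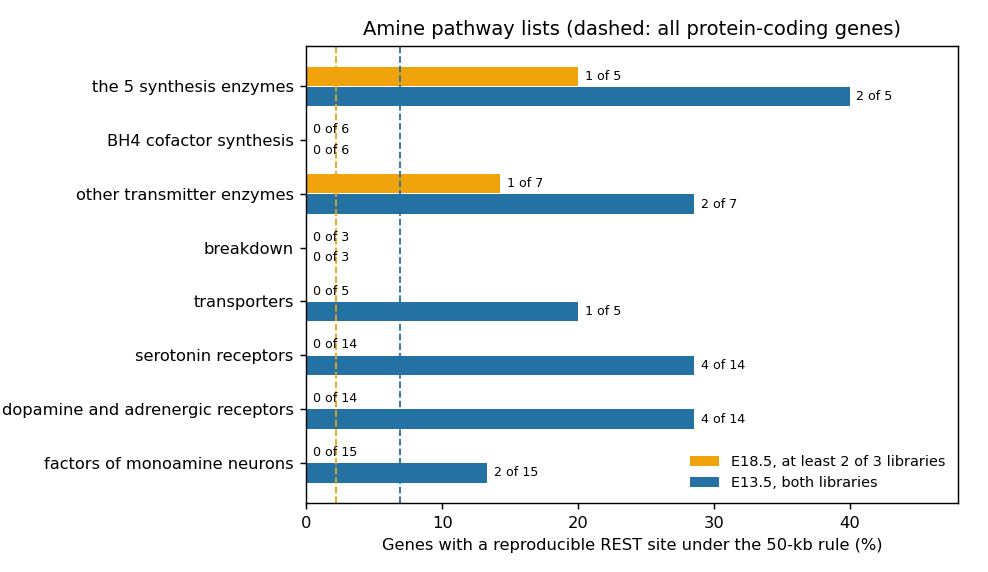
Percent of genes with a reproducible REST site under the 50-kb rule (horizontal axis), at E18.5 (orange, at least 2 of 3 libraries) and E13.5 (blue, both libraries), for the 5 synthesis enzymes and 7 lists of the amine pathway, with counts beside the bars and dashed lines at 2.20% and 6.89% of all protein-coding genes. At E18.5 only the synthesis enzymes (Tph2) and the other transmitter enzymes have such a gene.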

How the data were processed

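The authors sequenced single-end reads, aligned them with Bowtie2 2.2.5 (1 mismatch) to mm9, filtered them at a mapping quality of 10, and used MACS2 2.1.0 with an input control for peak calling, per the study's methods and the processing notes. The deposited score of each peak is a whole number of unstated unit, and 1 list is given per library, named for duplicate removal and a 10% false discovery rate. The paper instead pooled its E13.5 replicates before peak calling, at a stricter false discovery rate. The lists used here are therefore not its published peak set. Read totals were not used here.

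Overlapping entries of a library were merged (2 to 7 a library), peaks of different libraries that shared 1 bp were joined into sites, and genes came from GENCODE vM1. The matrix was learned and scanned with numpy 2.4.6, pysam 0.24.0 and numba 0.67.0, and tested on simulated data. Intervals are exact binomial, over sites, and cover counting error only. Nothing was paired, and the spread between libraries may be technical. Named were all members, list genes with reproducible sites, the nearest-start genes and the 3 genes most like each bound member. Some list genes without a reproducible site (Pts, Gad2, Maoa, Maob, Pnmt, Hdc and Aanat) were named too. The members and lists were chosen with earlier results of these data known. Of 65 list genes 64 matched, and some of them are counted but not reported by name here. Peak lists of 1 factor do not measure expression, so the tissue label was not checked against markers. Alternatives changed the window, assignment, score threshold, overlap, libraries and motif rule.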

Additional observations from a re-analysis of the deposited data

How the results depend on the processing

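The difference between stages in the number of enzyme genes with a peak was -1.83 genes and stayed below 0 under each alternative run, with exact permutation p-values of 0.2 to 1. It shrank to -0.833 (exact p = 0.6) with a 5-kb window, with basal-plus-extension domains and with the 226 top-scoring peaks of each library, to -1.17 (exact p = 0.4) with scores above the median, and to -0.333 (exact p = 1) within 5 kb of the start alone. Leaving out 1 library in turn gave differences of -2.33 to -1.33 genes. The E18.5 count of 1 gene (Tph2, beside 2.20% of all genes) became 2 (1.66%) with basal-plus-extension domains. Ddc was then given the Grb10 site, and the E13.5 genes were Tph2 and Ddc. The E18.5 count became 0 (1.39%) with scores above the library median. It was also 0 without E18.5 A (1.36% of all genes) or without E18.5 C (1.54%). It stayed at 1 without E18.5 B (1.48%) and without either E13.5 library (2.20%). The E13.5 count of 2 (6.89% of all genes) became 1, Tph2 in each case, with a 5-kb window (2.82% of all genes), the top-scoring peaks (1.48%), scores above the median (3.71%) and 5 kb around the start alone (1.56%). It became 0 when peaks had to cover 50% of each other (0.626% of all genes), and the median peak length was 161 bp in E13.5 A against 483 bp in E13.5 B. With 1 library left out, the count was 2 to 3 (6.89% to 7.85% of all genes). Where 1 E13.5 library was left, a peak in it alone was enough, and the 3 genes without E13.5 B included Tph1. The RE1 count of 3 sites of 4 became 1 (upstream of Dbh) with at most 5 mismatches, a rule met by 48.1% of all sites, against 60.5% under the score limit, and by 33.8% of sites called in E13.5 A only, against 53.9%. No paired analysis was possible because the letters of the libraries do not mark shared embryos or batches between stages. Depth is unknown and limits what a missing peak can show.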

Other observations

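Among enzymes of other transmitters, Chat, which encodes the acetylcholine-synthesising choline acetyltransferase, was the 1 list gene with a site reproducible at both stages. Its site, 1.88 kb upstream of the start (chr14:33280726-33281217), had ranks of 1.92 and 14.4 in E18.5 B and C and of 90.9 and 71.1 in E13.5 A and B, and was not called in E18.5 A. The GABA-synthesising decarboxylase genes Gad1 and Gad2 each had a site with a canonical RE1 match. That of Gad1, 6.67 kb downstream of the start, was called in E18.5 B at rank 66.3 and in E13.5 A and B at 85.1 and 49.3. That of Gad2, 0.042 kb from the start, was called in E13.5 B alone, at rank 29.5. Pnmt, Hdc and Aanat had no peak in any library, and Asmt was not analysed here.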
